A study of Mus musculus with 27 samples.

Results

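The EGF receptor and HGF growth signaling genes are 10 genes that were found by their symbols in the expression table, which lists 21823 genes. They comprise the ligands Tgfa, Egf, Hbegf, Areg and Hgf, the receptors Egfr, Erbb2, Erbb3 and Met, and the receptor inhibitor Errfi1, and each symbol occurred once. They were measured in livers of wild-type female C57BL/6 mice (C57BL/6N in the study's methods) that were non-pregnant (NP), at day 8 post coitum (dpc8) or at day 16 post coitum (dpc16), and the study's methods describe the mice as adult virgin animals, mated for the pregnant groups. From each liver lobule, zone 1 around the portal vein (PV), zone 3 around the central vein (CV) and the parenchymal zone 2 between them were cut from frozen sections with a laser, and the RNA of each area was sequenced. The 3 stages and 3 zones give 9 groups of 3 libraries, 27 in all, with no transgene or treatment in any group. The comparisons ask how gene expression differs between the zones and how it changes with pregnancy in each zone.

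EGF family ligands are made as membrane-bound precursors, are cut free by metalloproteases and bind the EGF receptor, a tyrosine kinase that pairs with itself or with the related receptors Erbb2 and Erbb3 and signals through the Ras and MAP kinase and the PI3 kinase pathways. HGF is made by non-parenchymal cells of the liver as an inactive precursor, is cut by serine proteases and binds the tyrosine kinase Met on hepatocytes. Both routes are known for driving hepatocytes into the cell cycle during liver regeneration, and Errfi1 (also called Mig-6) binds the kinase domain of active EGF receptor and inhibits it.

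The expression unit is FPKM, fragments per kilobase of transcript scaled to the mapped fragments of the library, so levels can be set side by side between genes. The whole marker lists for hepatocytes (5 of 5 genes), periportal cells (6 of 6) and pericentral cells (6 of 6) had a median of at least 1 FPKM, and the summed pericentral markers were 240.2 to 463 FPKM in zone 1 and 6782 to 18246 FPKM in zone 3, which matches the labels. The sum of FPKM was 499866 to 988500 per library, and the steps of low values put 1 read per kilobase at 0.0300 to 0.133 FPKM. In 6 libraries labelled female, genes of the Y chromosome summed to 7.92 to 23.2 FPKM, against 0 to 2.97 FPKM in the other 21. In NP mice these are the first library of zone 1 and the second of zone 3, at dpc8 the first of zone 1 and the second of zone 2, and at dpc16 the third of zone 2 and the third of zone 3. They also stood apart in 10 markers of connective tissue and smooth muscle, whose mean log2(FPKM + 1) was 5.04 to 6.77 against 0.96 to 4.13, while hepatocyte markers were at 10.6 to 11.5 against 11.2 to 12.6 and overlapped. Each call of a member below is given with and without them. In RNA of whole tissue areas, fewer cells of a type and less RNA per cell cannot be told apart.

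The regions upstream of 8 of the 10 genes (11 transcription starts) were found in the RefSeq promoter table (GRCm38.p6), and Erbb3 and Hbegf were not matched. The 250 bases before the start are shown for Tgfa, the only one of the 10 genes that passed the test in any comparison, and for Errfi1 and Areg, which stand at the top and at the bottom of the levels described here. Capitals mark matches, on either strand, to the GC box GGGCGG, the cyclic AMP response element TGACGTCA, the TCF core CTTTGA and the TATA box TATAAA.
Tgfa: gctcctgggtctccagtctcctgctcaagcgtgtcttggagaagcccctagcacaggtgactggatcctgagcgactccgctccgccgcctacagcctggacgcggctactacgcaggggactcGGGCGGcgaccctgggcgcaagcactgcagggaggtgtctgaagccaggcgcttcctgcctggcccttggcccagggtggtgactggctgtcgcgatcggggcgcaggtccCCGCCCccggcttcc
Errfi1: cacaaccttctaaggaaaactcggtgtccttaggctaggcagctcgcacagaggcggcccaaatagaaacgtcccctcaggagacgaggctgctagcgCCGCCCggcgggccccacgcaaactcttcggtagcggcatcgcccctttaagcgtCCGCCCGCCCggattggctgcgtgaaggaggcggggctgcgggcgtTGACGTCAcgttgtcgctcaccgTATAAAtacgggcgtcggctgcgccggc
Areg: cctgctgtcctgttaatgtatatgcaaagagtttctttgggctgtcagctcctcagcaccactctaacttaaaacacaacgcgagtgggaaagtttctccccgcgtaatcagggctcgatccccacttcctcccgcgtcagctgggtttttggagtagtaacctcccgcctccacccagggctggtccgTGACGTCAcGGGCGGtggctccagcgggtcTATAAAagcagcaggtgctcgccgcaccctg
The Tgfa sequence lies at chr6:86194972-86195221 on the plus strand, has 69.2% G and C against a median of 52.4% over 32851 promoters of the same length, and holds 2 GC boxes and no match to the other motifs. The Errfi1 sequence lies before the second of its 2 listed starts, at chr4:150854820-150855069 on the plus strand, and the Areg sequence lies at chr5:91139349-91139598 on the plus strand. Both of these hold the cyclic AMP response element, which 1.55% of all promoters hold, and a TATA box, which 12.4% hold. GC boxes, present in 32.7% of all promoters, were found 3 times in this Errfi1 window, where 2 of the matches share bases, and once in that of Areg. Of the other starts, that of Met held 3 GC boxes, that of Egfr held 1, and the first Errfi1 start held a TCF core, which 13.8% hold, while the starts of Egf, Hgf and Erbb2 held none of the 4 motifs. These matches describe letters in these windows only.

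Levels spanned a wide range among the 10 genes. Errfi1 was the most abundant, with a lowest, median and highest value over the 27 libraries of 130.1, 436 and 690.0 FPKM. Egfr followed with 50.7, 126 and 275 FPKM, then Erbb3 with 12.5, 34.1 and 67.0 FPKM and Met with 12.9, 32.3 and 49.7 FPKM. The inhibitor Errfi1 was listed above Egfr, the receptor that it binds, in 26 of 27 libraries, the exception being NP zone 3 replicate 2, with a median ratio of 3.02. Among the ligands, Hgf was at 4.16, 12.5 and 17.1 FPKM and Tgfa at 1.25, 3.97 and 8.84 FPKM, while the medians of Hbegf and Egf were 1.12 and 0.560 FPKM. Erbb2 had a median of 0.587 FPKM and Areg was listed at 0 in 20 of 27 libraries. Of the 10 genes, 9 passed the filter of at least 1 FPKM in at least 3 libraries and were tested with limma, and Areg did not.

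**Figure D1:**
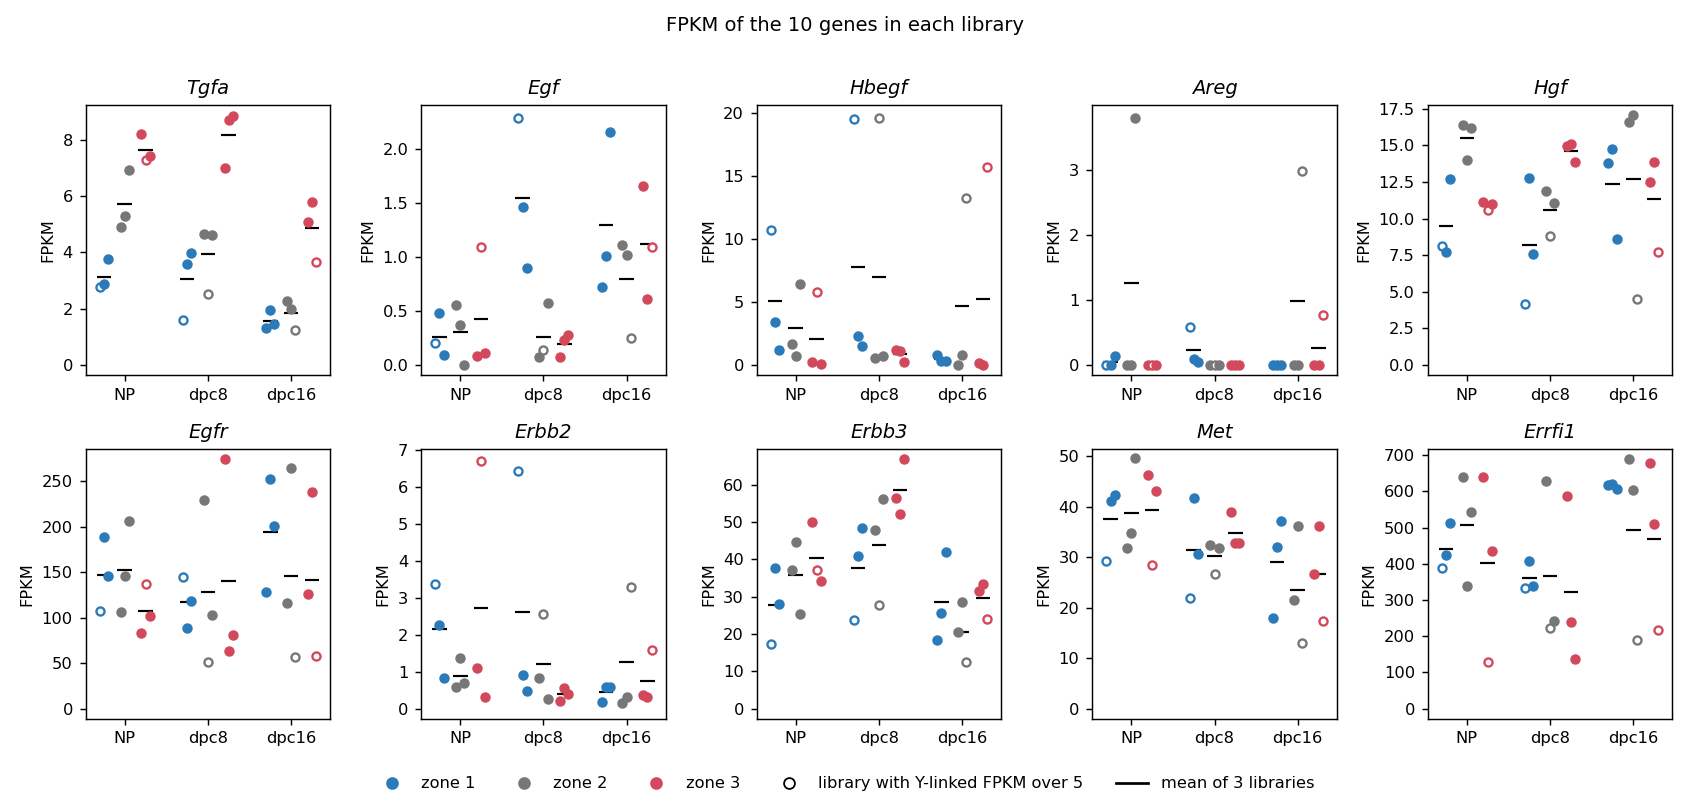
FPKM of the 10 genes (one panel each) by stage, with zones 1, 2 and 3 in blue, grey and red, one point per library and a bar at the mean of 3 libraries. Open circles are the 6 libraries with Y-linked FPKM over 5. Tgfa is low in zone 1 and high in zone 3 at each stage, Hbegf is highest in open circles, and the groups of Egfr and Errfi1 overlap widely.

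Tgfa, transforming growth factor alpha, a ligand of the EGF receptor that hepatocytes can make themselves, was lower in the PV zone than in the CV zone at every stage and was lower at dpc16 than in NP mice. The gene (ENSMUSG00000029999.14) lies at chr6:86195223-86275719 on the plus strand of mm10. In NP mice the zone 1 libraries had 2.77, 2.88 and 3.76 FPKM, the zone 2 libraries 4.92, 5.28 and 6.94 FPKM and the zone 3 libraries 8.19, 7.27 and 7.41 FPKM. These 3 ranges did not overlap, and they rose in the order of the zones from PV to CV. At dpc8 the values were 1.59, 3.59 and 3.97 FPKM in zone 1, 4.66, 2.51 and 4.61 FPKM in zone 2 and 6.99, 8.72 and 8.84 FPKM in zone 3. Zones 1 and 2 overlapped there, and all 3 values of zone 3 were above both. At dpc16 the values were 1.31, 1.95 and 1.46 FPKM in zone 1, 2.27, 1.99 and 1.25 FPKM in zone 2 and 5.08, 5.81 and 3.66 FPKM in zone 3. Zone 3 again stood above the other zones, which overlapped. Over the 9 groups the mean fell from 8.18 ± 1.04 FPKM in dpc8 zone 3 and 7.63 ± 0.498 FPKM in NP zone 3 (SD, n = 3) to 1.57 ± 0.332 FPKM in dpc16 zone 1, and of the 8 pairs of neighbours in this order only NP zone 3 and NP zone 2 did not overlap.

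**Figure D2:**
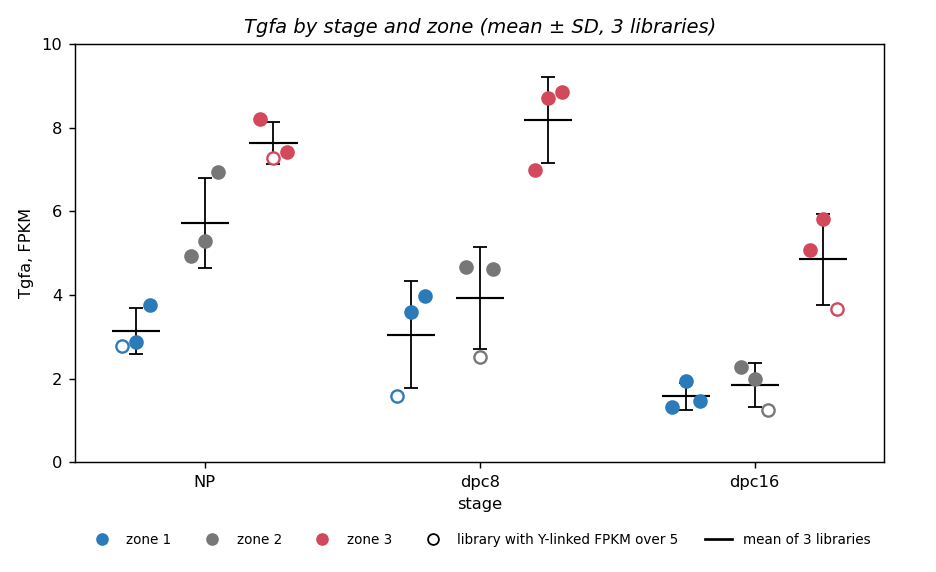
Tgfa in FPKM by stage, with zones 1, 2 and 3 in blue, grey and red, one point per library, the mean of 3 libraries as a bar and the SD as whiskers. Open circles are libraries with Y-linked FPKM over 5. All zone 3 points lie above the zone 1 points of the same stage, and zones 1 and 2 reach no more than 2.27 FPKM at dpc16.

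Averaged over stages, Tgfa fell by 1.16 on the log2(FPKM + 1) scale from zone 3 to zone 1 (zone 1 minus zone 3, SE 0.14, limma adjusted p = 2.34e-06). Of the 9 genes tested it alone passed the threshold, against 7.87% of all 12952 genes tested, and the median difference of the 9 genes was 0.30 against 0.04 for all genes. This call held in each of the 8 alternative analyses and without each of the 18 libraries of zones 1 and 3 in turn, with differences of -1.44 to -1.06. Without the 6 libraries named above the difference was -1.10 (adjusted p = 5.97e-06), and with the connective tissue markers as a covariate it was -1.10 (adjusted p = 3.91e-07).

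Within stages, Tgfa was again the only one of the 9 genes past the threshold. The difference between zone 1 and zone 3 was -1.07 in NP mice (SE 0.26, adjusted p = 0.0393, background 1.34%), -1.23 at dpc8 (SE 0.26, adjusted p = 0.0117, background 1.61%) and -1.18 at dpc16 (SE 0.26, adjusted p = 0.0150, background 1.55%), where the background is the share of all tested genes past the threshold. The difference did not shift detectably with pregnancy, since the dpc8 change in zone 1 minus that in zone 3 was -0.17 (95% interval -0.93 to 0.60, adjusted p = 1) and the dpc16 change was -0.11 (95% interval -0.87 to 0.65, adjusted p = 0.993). Over all genes, 0% passed the threshold in the dpc8 test of this shift and 0.054% in the dpc16 test, and none of the 9 genes passed in limma in either (1 and 0 at an unadjusted p under 0.05). After the 6 libraries with Y-linked FPKM were left out, the difference was -1.03 in NP mice (adjusted p = 0.0326), -0.94 at dpc8 (adjusted p = 0.0254) and -1.33 at dpc16 (adjusted p = 0.00140). The calls within a stage rest on few libraries. In NP mice the call was lost without any 1 of the 6 libraries (adjusted p 0.0591 to 0.171). At dpc8 it was lost without zone 1 replicate 1 (adjusted p = 0.110), zone 3 replicate 2 (adjusted p = 0.0638) or zone 3 replicate 3 (adjusted p = 0.0745). At dpc16 it was lost without zone 1 replicate 1 (adjusted p = 0.0869), zone 1 replicate 3 (adjusted p = 0.0631), zone 3 replicate 1 (adjusted p = 0.0810) or zone 3 replicate 2 (adjusted p = 0.103), while the differences in these analyses stayed between -1.41 and -0.94. Fitted on the groups compared alone, none of the 3 passed (adjusted p 0.145 to 0.243). Quantile normalization ended the calls in NP mice (-1.20, adjusted p = 0.162) and at dpc16 (-1.05, adjusted p = 0.286), and a pseudocount of 0.1 ended that in NP mice (-1.26, adjusted p = 0.0791). With a replicate block of stage and number, 312 genes in place of 201 passed at dpc16, and Tgfa kept its call (adjusted p = 0.00455). Whether the numbers pair the libraries could not be decided.

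With pregnancy, Tgfa fell between NP and dpc16. Averaged over zones it fell by 0.84 (SE 0.18, adjusted p = 0.00497), and it was the only one of the 9 genes past the threshold, against a background of 6.8%. The median difference of the 9 genes was -0.40, against -0.01 for all genes. The sum of FPKM was higher at dpc16, at 834568 to 988500 in 7 libraries and 523854 and 573644 in the other two, those with Y-linked FPKM over 5, against 499866 to 704327 in NP mice, and the summed hepatocyte markers in zone 1 were 167902 to 222158 FPKM against 36594 to 97649 FPKM. The part of this shift in the fall of Tgfa was not tested beyond the quantile normalization given with the calls. By zone, Tgfa fell in zone 2 by 1.25 (SE 0.26, adjusted p = 0.00820, background 2.66%), and the fitted difference was -0.69 in zone 1 (adjusted p = 0.280, background 1.37%) and -0.58 in zone 3 (adjusted p = 0.390, background 1.32%), where none of the 9 genes passed in limma (2 and 1 before adjustment, at p under 0.05). In zone 1 Tgfa passed with the connective tissue covariate (-0.86, adjusted p = 0.0366). In all 3 zones the 3 dpc16 values were below the 3 NP values, and whether zone 2 differs from the others in this change was not tested. The call in zone 2 was lost without NP zone 2 replicate 3 (-1.12, adjusted p = 0.0533), under quantile normalization (-1.22, adjusted p = 0.0781) and on the groups compared alone (adjusted p = 0.296). Under quantile normalization the averaged difference was -0.75 (adjusted p = 0.0730). From dpc8 to dpc16, Tgfa fell by 0.68 averaged over zones (SE 0.18, adjusted p = 0.0234, background 6.18%). Under quantile normalization this was -0.57 (adjusted p = 0.214), and on the groups compared alone it was -0.68 (adjusted p = 0.0783). With the same 6 libraries left out, all 3 of these calls held, at -0.76 for dpc16 against NP averaged (adjusted p = 0.00329), -1.09 in zone 2 (adjusted p = 0.00663) and -0.75 for dpc16 against dpc8 (adjusted p = 0.00343).

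At dpc8 none of the 9 genes passed the threshold against NP. The shares of all tested genes past it were 0.0309% averaged over zones, 0.0309% in zone 1, 0.00772% in zone 2 and 0.0154% in zone 3. In limma at an unadjusted p under 0.05, the number of members was 0 averaged over zones and in zones 2 and 3 and 1 in zone 1, which is Egf. For Tgfa the averaged difference between dpc8 and NP was -0.15, with a 95% interval of -0.53 to 0.22.

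**Figure D3:**
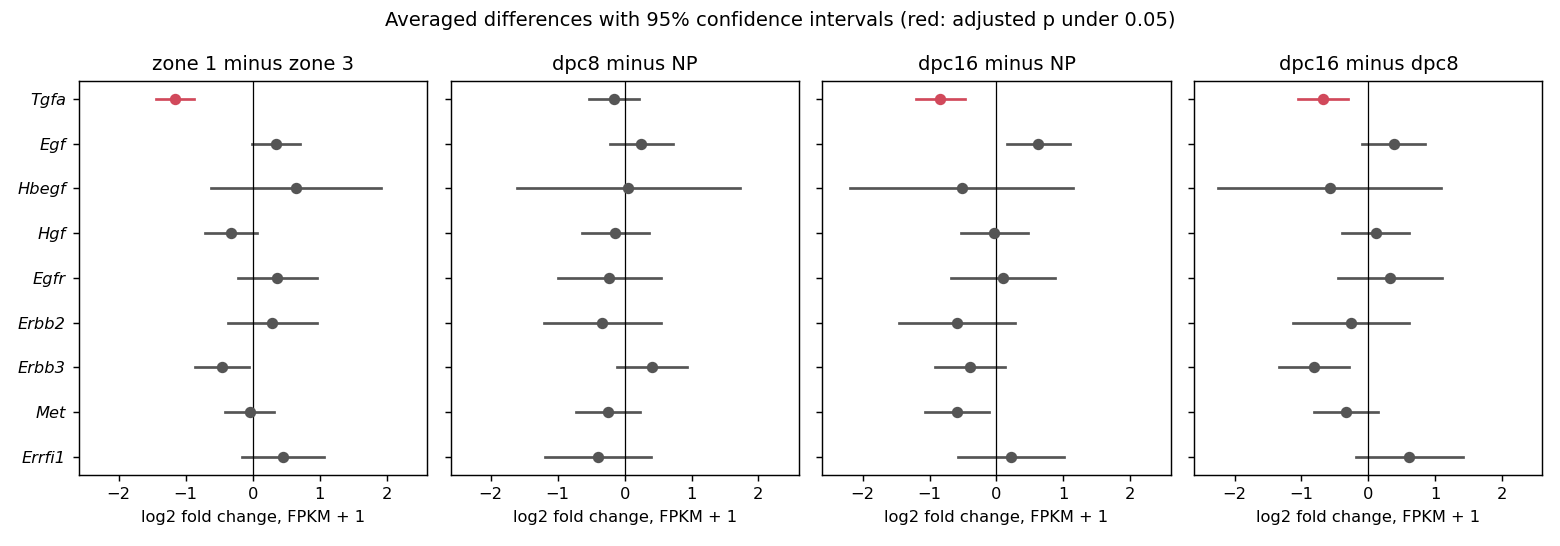
Log2 fold changes on the FPKM + 1 scale, with 95% confidence intervals, of the 9 tested genes in the 4 averaged comparisons. Only the Tgfa differences shown in red, -1.16, -0.84 and -0.68, have an adjusted p under 0.05, and the intervals of Hbegf are the widest.

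Egf, epidermal growth factor, was weakly expressed, with 0 to 1.09 FPKM in the 9 NP libraries. In zone 1 the NP values were 0.202, 0.483 and 0.0975 FPKM, the dpc8 values were 2.29, 1.46 and 0.899 FPKM and the dpc16 values were 0.726, 1.01 and 2.16 FPKM. Both pregnant groups of zone 1 thus lay above the NP group without overlap. In dpc8 zone 3 the values were only 0.0798, 0.235 and 0.279 FPKM, below all 3 libraries of dpc8 zone 1. None of these differences passed the threshold. The fitted difference between zones 1 and 3 at dpc8 was 1.06 (SE 0.32, adjusted p = 0.122). It passed with array weights (0.90, adjusted p = 0.0292), and it was 0.69 with quantile normalization and 2.45 with a pseudocount of 0.1, neither of which passed. That between dpc8 and NP in zone 1 was 0.99 (SE 0.32, adjusted p = 1), and that between dpc16 and NP in zone 1 was 0.83 (SE 0.32, adjusted p = 0.294). When the 6 libraries with Y-linked FPKM were left out, these 3 values were 0.85 (adjusted p = 0.184), 0.76 (adjusted p = 1) and 0.80 (adjusted p = 0.208), and with a pseudocount of 0.1 the differences from NP were 2.25 at dpc8 and 1.96 at dpc16. Averaged over zones, dpc16 differed from NP by 0.63 (SE 0.23, adjusted p = 0.112), a value that became 0.82 and passed the threshold (adjusted p = 0.0189) without the 6 libraries with Y-linked FPKM. It also passed with array weights (0.67, adjusted p = 0.0204) and with no replicate block (0.63, adjusted p = 0.0292), and with a pseudocount of 0.1 it was 1.65 (adjusted p = 0.0948). The highest Egf value, 2.29 FPKM, is that of dpc8 zone 1 replicate 1, one of these 6.

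Hbegf, heparin-binding EGF-like growth factor, was highest in the same few libraries. It was 5.79 to 19.6 FPKM in the 6 libraries with Y-linked FPKM (median 14.5) and 0 to 6.41 FPKM in the other 21 (median 0.763), and 5 of the 6 lay above all others. In dpc8 zone 2, for example, the 3 libraries had 0.574, 19.6 and 0.712 FPKM, and in dpc16 zone 3 they had 0.151, 0 and 15.7 FPKM. The sixth of these libraries, NP zone 3 replicate 2 with 5.79 FPKM, was exceeded by NP zone 2 replicate 3 with 6.41 FPKM. No comparison of Hbegf passed the threshold, with these 6 libraries or without them, and the part of connective tissue in its level was not tested.

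Areg, amphiregulin, another EGF receptor ligand, was above 0 in 7 libraries. The highest value was 3.81 FPKM in NP zone 2 replicate 3, followed by 2.98 FPKM in dpc16 zone 2 replicate 3, 0.779 FPKM in dpc16 zone 3 replicate 3 and 0.587 FPKM in dpc8 zone 1 replicate 1. The same NP zone 2 replicate 3 that held the highest Areg value also held the highest Hbegf value among the 21 libraries without Y-linked FPKM. With 20 libraries at 0, no difference between groups was tested.

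Hgf, hepatocyte growth factor, had its highest group mean in zone 2 in NP mice and at dpc16 and in zone 3 at dpc8. None of its differences in the 15 comparisons passed the threshold. These comparisons hold no test of zone 2 against another zone. In NP mice zone 2 was highest with 16.4, 14 and 16.2 FPKM, against 8.13, 7.75 and 12.7 FPKM in zone 1 and 11.1, 10.6 and 11.0 FPKM in zone 3. At dpc8 zone 3 was highest with 14.9, 15.1 and 13.9 FPKM, against 4.16, 12.8 and 7.59 FPKM in zone 1 and 11.9, 8.81 and 11.1 FPKM in zone 2. At dpc16 the 3 zones overlapped, between 4.49 and 17.1 FPKM. The 4.49 FPKM is that of zone 2 replicate 3, a library with Y-linked FPKM. The other zone 2 libraries had 16.6 and 17.1 FPKM, against 8.63 to 14.7 FPKM in zone 1 and 7.72 to 13.9 FPKM in zone 3. Between zones 1 and 3 at dpc8, where the values did not overlap, the fitted difference was -0.88 (SE 0.37, adjusted p = 0.320). This difference moved to -0.52 without dpc8 zone 1 replicate 1 (adjusted p = 0.905), the library with the lowest Hgf value of all. Averaged over stages the difference between zones was -0.32 (95% interval -0.71 to 0.06), and averaged over zones dpc16 differed from NP by -0.03 (95% interval -0.53 to 0.47).

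In the 6 libraries with Y-linked FPKM, Hgf was 4.16 to 10.6 FPKM (median 7.93) against 7.59 to 17.1 FPKM (median 13.8) in the other 21. Stellate cells are a known source of HGF in liver. Their 8 marker genes all had a median of at least 1 FPKM. The mean log2(FPKM + 1) of these genes was 2.97 to 3.51 in the 6 libraries and 3.01 to 3.85 in the others. This mean combines genes that differed in opposite directions, so it cannot show whether stellate content was alike. The medians of Lrat (2.46 against 5.26 FPKM), Dcn (50.7 against 81.5 FPKM), Colec11, Reln and Rgs5 were lower in the 6 libraries. Those of Pdgfrb (9.57 against 2.08 FPKM), Des (5.11 against 2.51 FPKM) and Hand2 were higher. Des is also among the connective tissue and smooth muscle markers. The sum of these 8 markers was 83.9 to 96.9 FPKM in dpc8 zone 1 and 171 to 173 FPKM in dpc8 zone 3, where Hgf was higher as well. In NP mice it was 153 to 214 FPKM in zone 2 and 171 to 237 FPKM in zone 3, where Hgf was lower than in zone 2. Their part in the Hgf level was not tested.

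Among the receptors, Egfr, which binds all of the EGF family ligands in this set, showed no difference past the threshold in any of the 15 comparisons. Its group means ran from 108 ± 27.5 FPKM in NP zone 3 to 194 ± 62.1 FPKM in dpc16 zone 1 (SD, n = 3), and all 8 pairs of neighbours in this order overlapped. The spread within groups was wide, as in dpc8 zone 3 with 275, 63.6 and 81.1 FPKM. Averaged over zones, dpc16 differed from NP by 0.10 (95% interval -0.68 to 0.87). Between zones 1 and 3, averaged over stages, it differed by 0.37 (95% interval -0.22 to 0.95). Egfr was 50.7 to 144 FPKM (median 82.9) in the 6 libraries with Y-linked FPKM and 63.6 to 275 FPKM (median 129) in the others.

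Erbb3, a receptor with little kinase activity of its own that signals by pairing with other receptors, had its highest group mean in the CV zone at dpc8. Its values there were 56.5, 52.1 and 67.0 FPKM, against 23.6, 41.0 and 48.4 FPKM in zone 1 and 48.0, 27.7 and 56.1 FPKM in zone 2. All 3 zone 3 values were above those of zone 1 and above those of NP zone 3 (50.1, 37.1 and 34.1 FPKM). The lowest value in each of dpc8 zones 1 and 2 came from a library with Y-linked FPKM, and dpc8 zone 3 held no such library. Erbb3 was 12.5 to 37.1 FPKM (median 23.8) in these 6 libraries and 18.3 to 67.0 FPKM (median 37.7) in the others. At dpc16, zone 2 held 20.5, 28.5 and 12.5 FPKM and zone 3 held 31.6, 33.5 and 23.9 FPKM. No Erbb3 difference passed the threshold. The nearest was that between dpc16 and dpc8 averaged over zones, -0.81 (SE 0.25, adjusted p = 0.0573). This difference passed it without the 6 libraries with Y-linked FPKM (-0.80, adjusted p = 0.0128), with the connective tissue covariate (-0.92, adjusted p = 0.00288), with array weights (-0.79, adjusted p = 0.00256), with no replicate block (-0.81, adjusted p = 0.0118), and without the first library of dpc8 zone 1, the second of dpc8 zone 2, the third of dpc16 zone 1 or the second of dpc16 zone 2 (adjusted p 0.0167 to 0.0405). Between zones 1 and 3, averaged over stages, the fitted difference was -0.46 (SE 0.19, adjusted p = 0.185) and, without these 6 libraries, -0.36 (adjusted p = 0.171), and between dpc16 and NP in zone 2 it was -0.81 (SE 0.36, adjusted p = 0.249). The zone 2 value was -0.51 without dpc16 zone 2 replicate 3 (adjusted p = 0.626).

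Erbb2, the partner receptor that has no ligand of its own, was low, and its level followed the same libraries as Hbegf. It was 1.59 to 6.71 FPKM (median 3.34) in the 6 libraries with Y-linked FPKM and 0.160 to 2.28 FPKM (median 0.550) in the other 21, and 5 of the 6 lay above all others. In NP zone 3 the values were 1.11, 6.71 and 0.317 FPKM, and in dpc8 zone 1 they were 6.43, 0.912 and 0.483 FPKM. No comparison of Erbb2 passed the threshold, with these 6 libraries or without them. Over the 27 libraries Pearson's r of Erbb2 with Hbegf on the log2(FPKM + 1) scale was 0.79, a description in which the same 6 libraries hold most of the high values of both genes.

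**Figure D4:**
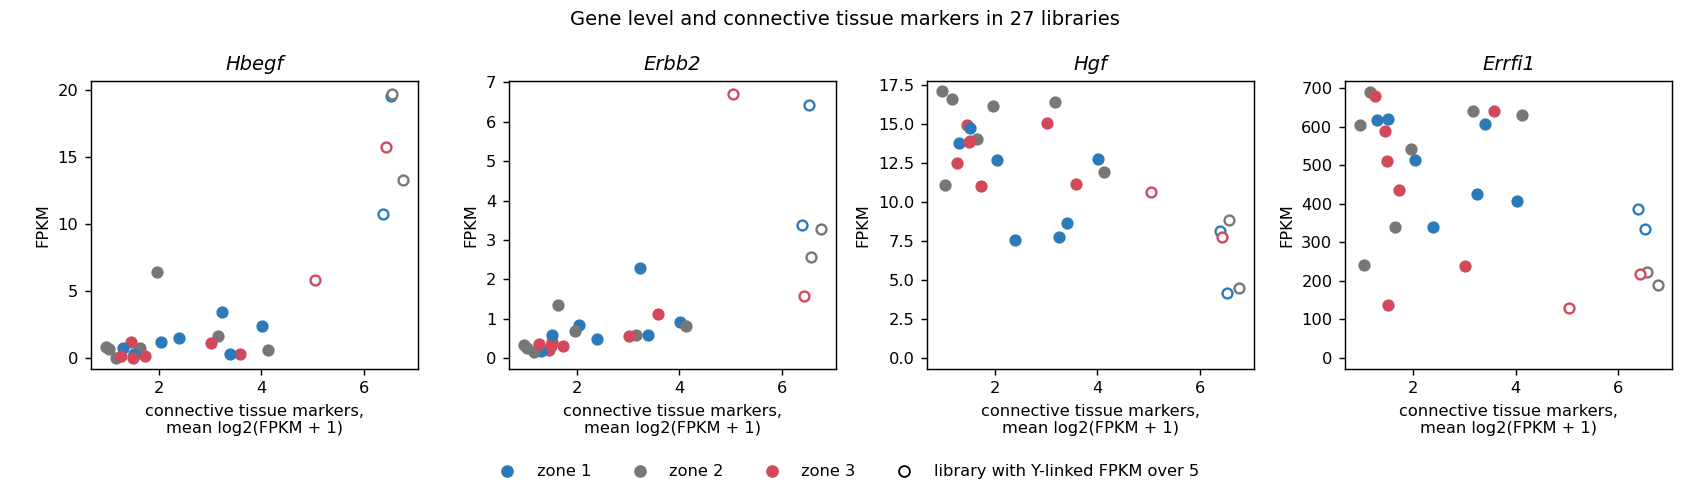
FPKM of Hbegf, Erbb2, Hgf and Errfi1 (vertical axes) against the mean log2(FPKM + 1) of 10 connective tissue and smooth muscle markers (horizontal axes), one point per library, coloured by zone. The 6 open circles, libraries with Y-linked FPKM over 5, lie at 5.04 to 6.77 on the horizontal axis and hold most of the high Hbegf and Erbb2 values and low Hgf values.

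Met, the HGF receptor, was similar in the 3 zones of NP mice, at 37.5 ± 7.26, 38.8 ± 9.54 and 39.3 ± 9.48 FPKM (SD, n = 3). At dpc16 the means were 29.0 ± 9.93, 23.5 ± 11.8 and 26.7 ± 9.40 FPKM, and in each zone the 2 groups overlapped. The averaged difference between dpc16 and NP was -0.59 (SE 0.23, adjusted p = 0.155). It passed the threshold in 1 of the 9 alternative analyses, that with the connective tissue covariate (-0.66, adjusted p = 0.0186). The averaged difference was -0.39 with array weights. In zone 2 the difference was -0.78 (SE 0.34, adjusted p = 0.237), and it was -0.23 with array weights, -0.43 or -1.14 when the third or the second dpc16 library of that zone was left out, with no call in any of these. Between zones 1 and 3, averaged over stages, Met differed by -0.04 (95% interval -0.41 to 0.32). Met was 12.9 to 29.2 FPKM (median 24.3) in the 6 libraries with Y-linked FPKM and 17.9 to 49.7 FPKM (median 34.9) in the others.

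Errfi1, the inhibitor of the EGF receptor, reached its tightest values in dpc16 zone 1, with 617, 619 and 607 FPKM, all above the 387, 425 and 513 FPKM of NP zone 1. It spread widely in some groups, as in dpc8 zone 3 with 588, 240 and 137 FPKM and in dpc16 zone 2 with 690.0, 603 and 190.2 FPKM, and less in others, as in dpc8 zone 1 with 334, 407 and 339 FPKM. The fitted difference between dpc16 and NP in zone 1 was 0.48 (95% interval -0.73 to 1.70, adjusted p = 0.817). It was 0.12 under quantile normalization and 0.16 with the connective tissue covariate. Errfi1 passed the threshold in no comparison. Between dpc16 and dpc8, averaged over zones, it differed by 0.61 (SE 0.38, adjusted p = 0.452), which became 0.85 and passed (adjusted p = 0.0445) with array weights alone among the alternatives. It was 130.1 to 387 FPKM (median 221) in the 6 libraries with Y-linked FPKM and 137 to 690.0 FPKM (median 543) in the others.

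For Egfr, Met, Hgf and Errfi1, the genes whose values followed them most closely over the 27 libraries were found by Pearson's r on the log2(FPKM + 1) scale, as a description. All share the same libraries and their composition. For Egfr they were Saa1 (0.86), an acute-phase protein gene, Helb (0.81), a DNA helicase gene, and Nnmt (0.78), nicotinamide N-methyltransferase. For Met they were Gpld1 (0.88), Mia2 (0.82) and H2-Q6 (0.82), and for Hgf they were Stk16 (0.84), Mb21d2 (0.83) and Hadh (0.83). For Errfi1 they were Tat (0.90), tyrosine aminotransferase, Trib1 (0.88) and Atl2 (0.87). Among the members themselves, Egfr and Errfi1 had an r of 0.59, Erbb3 and Tgfa 0.68, and Erbb2 and Hgf -0.70.

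The other genes of the pathway were taken as 9 lists with 87 genes, of which 82 were tested. Between zones 1 and 3, averaged over stages, 11 were higher and 2 lower in zone 1, or 15.9% against the background of 7.87%, and the median difference of the 82 genes was 0.15 against 0.04 for all genes. In NP mice 0 of the 82 passed in limma (9 at an unadjusted p under 0.05) against a background of 1.34%. At dpc8 1 passed, or 1.22% against 1.61%, and at dpc16 3 passed, or 3.66% against 1.55%.

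Of 6 further ErbB ligands, 4 were tested and 1 was higher in zone 1. This is Nrg4, neuregulin 4, a ligand of the receptor Erbb4, with 26.9 to 51.0 FPKM in dpc16 zone 1 and 0.407 to 0.925 FPKM in dpc16 zone 3. Its difference was 2.89 averaged over stages (SE 0.39, adjusted p = 1.86e-05) and 4.39 at dpc16 (SE 0.81, adjusted p = 0.00262). Nrg4 thus ran in the opposite direction to Tgfa along the lobule. Of 8 further receptors and membrane proteins, 7 were tested and Sdc1, the heparan sulfate proteoglycan syndecan 1, was higher in zone 1 by 0.78 (SE 0.19, adjusted p = 0.0104).

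Of 10 genes that activate HGF or inhibit its activation, 9 were tested, 3 were higher and 1 was lower in zone 1. Hgfac, the protease that activates HGF, held 44.2 to 131 FPKM in zone 3 and 115 to 433 FPKM in zone 1 (1.21, SE 0.20, adjusted p = 0.000211), and at dpc16 the difference was 1.86 (SE 0.36, adjusted p = 0.00423). St14, a membrane protease (matriptase), was higher by 0.91 (SE 0.15, adjusted p = 0.000189) and Spint1, its inhibitor, by 1.29 (SE 0.22, adjusted p = 0.000293). Both were low, with highest values of 2.54 and 4.37 FPKM, and the median of Spint1 in zone 3 was 0. Of 6 markers of cholangiocytes, which express them, 3 had a median of at least 1 FPKM. Their sum was 40.2 to 159 FPKM in zone 1 and 0.0884 to 91.6 FPKM in zone 3, and the part of these cells was not tested. The highest zone 3 sum came from dpc16 replicate 3, a library with Y-linked FPKM, and the median sum of that group was 0.704 FPKM. Spint2, a second inhibitor, was lower in zone 1 by a difference of -0.49 (SE 0.14, adjusted p = 0.0322), a call that was lost without any of 11 of the 18 libraries (highest adjusted p over all alternatives 0.102).

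Feedback inhibitors of the MAP kinase pathway moved in both directions between the zones, with 2 of 11 higher and 1 lower in zone 1. Spry4 was higher by 0.92 (SE 0.18, adjusted p = 0.00164) and the phosphatase gene Dusp1 by 1.12 (SE 0.28, adjusted p = 0.0133). Dusp6, which encodes a phosphatase specific for ERK, was lower in zone 1 by a difference of -0.95 (SE 0.15, adjusted p = 0.000132), most of all at dpc16, where zone 1 held 7.95 to 13.2 FPKM and zone 3 held 36.3 to 45.4 FPKM (-1.78, SE 0.29, adjusted p = 0.000519). Of the 13 transcription targets, 4 were higher in zone 1. Fos differed by 1.54 (adjusted p = 0.0130), Junb by 0.87 (adjusted p = 0.0321), Ccnd1, cyclin D1, by 0.77 (adjusted p = 0.0302) and Ier2 by 0.71 (adjusted p = 0.0312). The calls of Junb, Ier2 and Ccnd1 were lost without any of 11, 11 and 9 of the 18 libraries, with a highest adjusted p over all alternatives of 0.144, 0.0814 and 0.0862. With no replicate block, 724 in place of 1019 of all genes passed between zones 1 and 3, and the calls of Junb (adjusted p = 0.1003), Ier2 (adjusted p = 0.0701), Ccnd1 (adjusted p = 0.0755) and Spint2 (adjusted p = 0.0579) were lost. At dpc8 Ccnd1 was higher in zone 1 by 1.70 (adjusted p = 0.0448), a call that was lost without any library but zone 3 replicate 1 and also when all those with Y-linked FPKM were left out (highest adjusted p over all alternatives 0.311). In the lists of ligand shedding (5 tested), adaptors and receptor turnover (15), MAP kinases (9) and PI3 kinase, Akt and Stat (9), no gene passed between zones 1 and 3.

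Between NP and dpc16, averaged over zones, 1 of the 82 genes was higher and 3 were lower, or 4.88% against the background of 6.8%. Adam10, a protease that sheds EGF family ligands, rose by 0.90 (SE 0.19, adjusted p = 0.00521), with 9.65 to 17.1 FPKM in NP and 17.7 to 35.3 FPKM at dpc16, and in zone 2 by 1.41 (SE 0.28, adjusted p = 0.00559), a call that was lost on the groups compared alone (adjusted p = 0.112). Ccnd1 fell by 1.31 (SE 0.29, adjusted p = 0.00676) to 12 to 26.4 FPKM at dpc16. Spry4 fell by 0.98 (SE 0.24, adjusted p = 0.0127). The averaged calls of these 3 genes held in every alternative analysis and without each library. Grb7, an adaptor, fell by 0.67 (SE 0.20, adjusted p = 0.0465) and in zone 2 by 1.12 (SE 0.29, adjusted p = 0.0391), calls that were lost without any of 12 of the 18 libraries (highest adjusted p over all alternatives 0.0915), and in zone 2 without any NP library or dpc16 replicate 3 (highest 0.373). Both Grb7 calls were also lost with quantile normalization and on the groups compared alone. With the replicate number as a fixed term the averaged call was lost. By zone, Ccnd1 fell in zone 2 by 1.67 (adjusted p = 0.0365), which was lost without any library but NP replicate 1 (highest adjusted p over all alternatives 0.132), and Dusp6 fell in zone 1 by 1.22 (adjusted p = 0.0306), which was lost without replicate 1 or 2 of either group (highest 0.312).

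Between dpc8 and dpc16, averaged over zones, 1 of the 82 genes was higher and 2 were lower, or 3.66% against the background of 6.18%. Ccnd1 fell by 1.15 (SE 0.29, adjusted p = 0.0179). Plxnb2, a semaphorin receptor that can associate with Met, fell by 0.47 (SE 0.12, adjusted p = 0.0249), and Hras rose by 0.63 (SE 0.18, adjusted p = 0.0365). The call of Plxnb2 was lost without dpc8 zone 1 replicate 2 or dpc8 zone 2 replicate 3 (highest adjusted p over all alternatives 0.0537), and that of Hras without any of 11 of the 18 libraries (highest 0.106). On the groups compared alone both were lost. The Hras call was also lost with quantile normalization and with the replicate number as a fixed term. Between NP and dpc8, 0 of the 82 genes passed in limma, averaged over zones or in any zone (1 to 5 at an unadjusted p under 0.05), against a background of at most 0.0309%. The same held for dpc16 against NP in zone 3 (8 unadjusted, background 1.32%) and for the dpc8 and dpc16 tests of a shift between zones (0 and 2 unadjusted, background 0% and 0.054%). With shares of all genes this low, 0 of 82 is near the background. Of the pathway calls named here, those of Junb between zones, Ccnd1 at dpc8, Grb7 in zone 2, Dusp6 at dpc16 against NP in zone 1 and Plxnb2 were lost when the 6 libraries with Y-linked FPKM were left out.

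**Figure D5:**
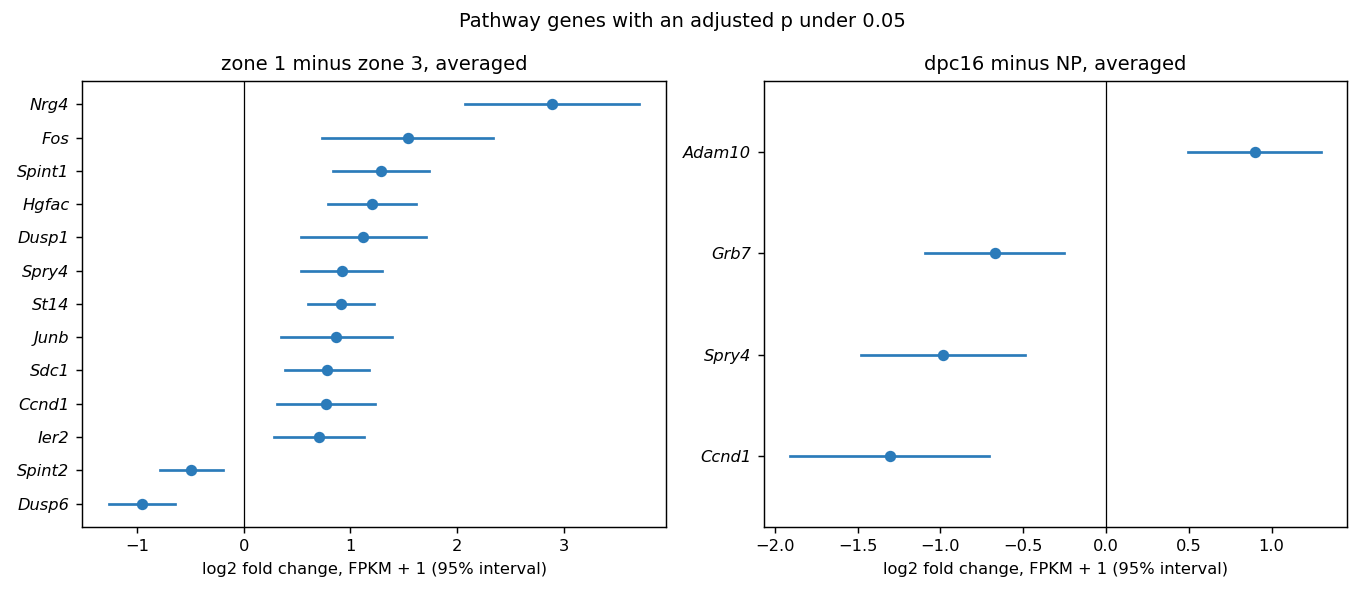
Log2 fold changes on the FPKM + 1 scale, with 95% confidence intervals, of the genes from the 9 pathway lists with an adjusted p under 0.05, between zones 1 and 3 (left, 13 genes) and between dpc16 and NP (right, 4 genes). Nrg4 is highest in zone 1 at 2.89, Dusp6 lies lowest at -0.95, and at dpc16 only Adam10 lies above 0.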

How the data were processed

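Laser-microdissected areas of 3 liver zones at 3 stages gave 27 RNA-seq libraries from rRNA-depleted total RNA. The authors trimmed single-end reads with cutadapt, mapped them to mm10 (HISAT2 2.1.0) and, from reads with a unique position, obtained the deposited FPKM of protein-coding genes with Cuffdiff (Cufflinks 2.2.1). FPKM values are not counts, and no count test was used. Genes with at least 1 FPKM in at least 3 libraries were tested on log2(FPKM + 1) with limma 3.58.1 in R 4.3.3, with 1 mean per group, an intensity trend and robust settings, two-sided, with Benjamini-Hochberg adjustment over all 12952 genes and a threshold of 0.05. A fold change on this scale understates that of low genes. Averaged comparisons used the correlation of libraries that share stage and replicate number. Pairing was checked by correlating deviations from group means. All 9 same-number pairs of zones at dpc16 exceeded 0.1 (0.26 to 0.86), against 4 of 9 in NP and 5 of 9 at dpc8. At dpc8 these included zones 2 and 3 under each number (0.35, 0.32 and 0.35). Same-number pairs of different stages, which cannot share a mouse, exceeded 0.1 in 11 of 27, with a highest r of 0.68. The check therefore cannot decide which libraries share a mouse.

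The study calls the libraries of a group independent experiments and describes its experiments as made in different mice, but the labels tie no library to a mouse. The p-values measure the spread between these libraries, and where zones share a mouse the comparisons without a block do not account for it. Groups and replicate numbers come from the sample titles. The 10 members, the pathway and marker lists and the tests were chosen with earlier results of these data known. The named genes are all members in every comparison, pathway genes past the threshold (up to 4 per list and comparison, by size), and the 3 genes most correlated with each of Egfr, Met, Hgf and Errfi1. Read steps were taken from low FPKM values (94.5% to 100% on whole multiples of a step). Positions are from GENCODE vM21 on mm10, and sequences and their coordinates from RefSeq (GRCm38.p6). A gene of the pathway lists is not reported here. The limma procedure was tested on simulated data with independent libraries. That test does not cover correlated libraries or libraries that stand apart.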

Additional observations from a re-analysis of the deposited data

Results flagged for a closer look

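The fitted Hgf differences between dpc8 and NP had opposite signs in zone 2 (-0.52, limma adjusted p = 0.971) and zone 3 (0.39, limma adjusted p = 1), and neither passed the threshold. All 3 dpc8 libraries of zone 2 were below the 3 NP libraries (8.81 to 11.9 against 14 to 16.4 FPKM), and all 3 dpc8 libraries of zone 3 were above (13.9 to 15.1 against 10.6 to 11.1 FPKM). The log2(FPKM + 1) change in zone 2 minus that in zone 3 was -0.91. The difference between the zones was not tested.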

How the results depend on the processing

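The number of members past the threshold was 1 in all analyses of zone 1 against zone 3 averaged over stages and 0 in all analyses of the 4 comparisons of dpc8 with NP, of dpc16 with NP in zone 3 and of the 2 shifts between zones. Elsewhere it moved, and the cause was not tested. Between zones 1 and 3 in NP mice it was 0 in place of 1 with a pseudocount of 0.1, with quantile normalization and on the groups compared alone. At dpc8 it was 0 on the groups compared alone and 2 with array weights, and at dpc16 it was 0 with quantile normalization and on the groups compared alone. For dpc16 against NP averaged over zones it was 0 with quantile normalization and 2 with array weights, with no replicate block, once the 6 libraries with Y-linked FPKM were left out and under the connective tissue covariate. It was 1 in zone 1 with the connective tissue covariate, in place of 0, and 0 in zone 2 with quantile normalization and on the groups compared alone. For dpc16 against dpc8 it was 0 with quantile normalization and on the groups compared alone, 3 with array weights (Tgfa, Erbb3 and Errfi1), and 2 with no replicate block, once the 6 libraries with Y-linked FPKM were left out and under the connective tissue covariate. Leaving out each library in turn gave 0 between zones 1 and 3 in NP mice, 0 to 1 at dpc8 and at dpc16, 0 to 1 for dpc16 against NP in zone 2 and 1 to 2 for dpc16 against dpc8. With no replicate block, 1529 in place of 881 genes passed for dpc16 against NP, 1432 in place of 801 for dpc16 against dpc8 and 724 in place of 1019 between zones 1 and 3. The replicate block changed no other call of a member, as a correlation or as a fixed term.

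Of the 7 Tgfa calls, none reversed. Uncalled differences near 0 changed sign. For Tgfa between dpc8 and NP this was so with array weights (0.017 averaged, 0.11 in zone 1), after the 6 libraries with Y-linked FPKM were left out (0.15 in zone 1) and under the connective tissue covariate (-0.052 in zone 3), and without single libraries the zone 1 value was -0.26 to 0.22. The Tgfa shift between zones changed sign for dpc8 under that covariate (0.012) and after those 6 were left out (0.096), with -0.34 to 0.13 without single libraries, and for dpc16 with quantile normalization (0.15), with -0.26 to 0.0079 without single libraries. Egfr at dpc16 against NP, averaged, was -0.0062 with quantile normalization and -0.053 to 0.25 without single libraries. Met between zones 1 and 3, averaged, was 0.0072 with quantile normalization, 0.037 under the covariate and -0.15 to 0.058 without single libraries. Hgf at dpc16 against NP, averaged, was 0.24 with array weights, 0.18 after the 6 were left out and -0.11 to 0.13 without single libraries. Of 28 pathway results, 16 held in every alternative, 17 without each library, and none reversed. Areg, listed at 0 in 20 of 27 libraries, did not pass the filter on low values and was not tested, which limits what this depth can show for it.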
